A study of Mus musculus with 8 samples.

Results

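Histone modifiers and chromatin remodellers are enzymes, and subunits of their complexes, that add, remove or act on histone marks or slide or evict nucleosomes. The set described here holds 48 genes, chosen by name from a list of histone deacetylases, acetyltransferases, methyltransferases, demethylases, Polycomb genes and remodelling genes. All 48 have a row among the 24883 rows of the deposited table and were matched by symbol alone, from a list drawn up with earlier results of these data known. RNA was sequenced from visual cortex of adult C57BL/6J mice in 4 anti-miR-29a libraries and 4 scrambled libraries. The anti-miR-29a animals had a locked nucleic acid (LNA) oligonucleotide complementary to miR-29a injected into the cortex, and the scrambled animals one of scrambled sequence. An LNA oligonucleotide is a chemically stiffened strand that pairs with a microRNA and blocks it. Both groups were injected on postnatal day 122 and harvested on postnatal day 129, 7 days later. No label ties each sample to its own animal, so a p-value here reflects only how these samples vary, and some of that variation may be technical.

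Histone tails carry acetyl and methyl groups that open or close chromatin. Acetyltransferases and deacetylases set acetylation, which goes with active genes, while methyltransferases and demethylases set methylation, whose meaning depends on the residue: lysine 4 of histone H3 (H3K4) marks active promoters, and lysines 9 and 27 (H3K9, H3K27) mark silent chromatin. SWI/SNF and CHD complexes use ATP to move nucleosomes. In the brain these enzymes are known for their part in learning, memory and the closing of developmental plasticity.

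MicroRNAs of the miR-29 family pair with their targets through the seed, bases 2 to 8, which are in capitals below. The mature sequences are from RefSeq (GRCm38.p6), and the 3 family members share the seed.
mmu-miR-29a-3p: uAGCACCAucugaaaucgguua
mmu-miR-29b-3p: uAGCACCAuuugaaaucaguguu
mmu-miR-29c-3p: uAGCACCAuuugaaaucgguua

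The 3' untranslated regions (3' UTRs) of the 48 genes were searched for TGGTGCT on the transcript strand, the complement of the seed, using the longest 3' UTR of each gene's protein-coding transcripts in GENCODE M21. A match was present in 12 of the 48 genes (25.0%), against 2065 of 13097 tested genes that could be searched (15.8%). Median 3' UTR length was 1268 nt for the 48 genes and 1230 nt for all tested genes that could be searched. The longest 3' UTRs of the set, 4547 to 5381 nt, were those of Hdac4, Hdac9, Kmt2a, Kdm2a, Kdm5a and Arid1b. All of these but Hdac9 held a match, while Hdac1 and Setdb1 held one in 505 and 548 nt. The part of length in the share of matches was not tested. The 12 genes held 14 matches, with 2 each in Hdac4 and Kdm2a. Of the 7 demethylase genes 5 held a match, namely Kdm2a, Kdm4a, Kdm5a, Kdm5b and Kdm6b. The other genes with a match were Hdac1, Sirt1, Setdb1, Kmt2a, Smarcc1 and Arid1b. An A follows the match in 3 genes (an 8mer), Hdac1, Setdb1 and Smarcc1. These 3 are printed below with the sites of Kdm6b and Kdm5b, the members whose values come up most in what follows, and of Hdac4, which holds 2 matches. The match is in capitals and positions are on mm10.
Hdac1, minus strand of chr4:129516475-129516497: cagagcacagggcagTGGTGCTa
Setdb1, minus strand of chr3:95323909-95323931: aggactttcccagcgTGGTGCTa
Smarcc1, plus strand of chr9:110238423-110238445: ttatctgagctagagTGGTGCTa
Kdm6b, minus strand of chr11:69399037-69399059: ccagccgggctctcaTGGTGCTc
Kdm5b, plus strand of chr1:134631944-134631966: ttctaaacagtgtgtTGGTGCTt
Hdac4 (site 1), minus strand of chr1:91933256-91933278: tcctgcgtcctgcctTGGTGCTc
Hdac4 (site 2), minus strand of chr1:91932945-91932967: aaacttgattaaaacTGGTGCTt

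Values are FPKM, which divide the fragments of a gene by its transcript length and by the library's mapped fragments, so levels of different genes can be compared per length. Each library listed 12538 to 12769 rows at 1 FPKM or more, and no read counts were used here, so depth is unknown. The kit did not mark strand, and exons of 19 of the 48 genes are overlapped by an annotated gene on the opposite strand, whose reads cannot be told apart from theirs. The largest overlap was in Hdac4, where 3536 nt are shared with Gm26720. Neuronal markers summed to 3573 to 3846 FPKM in anti-miR-29a libraries and 3624 to 3870 FPKM in scrambled libraries, and no listed neuronal, glial or vascular marker was at 0 in all libraries. Reactive astrocyte markers summed to 225 to 516 FPKM in anti-miR-29a libraries and 148 to 342 FPKM in scrambled libraries. Of these markers 6 of 6 were higher in the mean, and Gfap alone made up most of the sum in every library. Fibroblast markers summed to 464 to 707 FPKM in anti-miR-29a libraries and 318 to 496 FPKM in scrambled libraries. Ptgds alone made up most of that sum in every library, so its range is mainly that of 1 gene. Of the fibroblast markers tested, 5 of 5 were higher in the mean. In mean log2 FPKM, 5 of 8 microglia and macrophage markers, 3 of 6 astrocyte markers and 0 of 6 oligodendrocyte markers were higher in anti-miR-29a libraries. Gpnmb, of the microglia and macrophage list, read 2.63 to 7.30 FPKM in anti-miR-29a and 1.25 to 1.73 FPKM in scrambled libraries. In tissue samples like these, fewer cells of a type and less RNA per cell cannot be told apart, and the part of these cells in the values below was not tested.

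In anti-miR-29a libraries, 7 days after the injection, the 48 genes stood close to their levels in scrambled libraries. None of the 48 passed the test (limma on log2(FPKM + 0.1), Benjamini-Hochberg adjustment over 13912 rows, threshold 0.05), in a comparison that called 2 rows, or 0.0144% of those tested. With robust empirical Bayes the counts were 0 of 48 and 0.0719% of rows. At an unadjusted p under 0.05 limma counted 4 of 48 (8.33%), against 10.7% of all tested rows. All 4 were higher, against 7.54% of rows higher, and 0 were lower, against 3.18% of rows lower. This split depended on scaling, as did that of all rows. With quantile normalization 2 were higher and 4 lower, against 5.13% of rows higher and 5.73% lower. With median centring 2 were higher and 3 lower, against 5.38% of rows higher and 5.25% lower. Groups of libraries did not overlap in 2 of 48 (4.17%), both higher, against 6.31% of all tested rows and 4.02% higher. These shares are near or below the background, which is no result about the set. The median log2 difference (anti-miR-29a minus scrambled) was -0.015 over the 48 and 0.026 over all tested rows, and 22 of 48 differences were positive (45.8%) against 56.6% of all rows. The sign of the median over the 48 turned without anti-miR-29a replicate 1 (0.015) or scrambled replicate 4 (0.004).

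**Figure D1:**
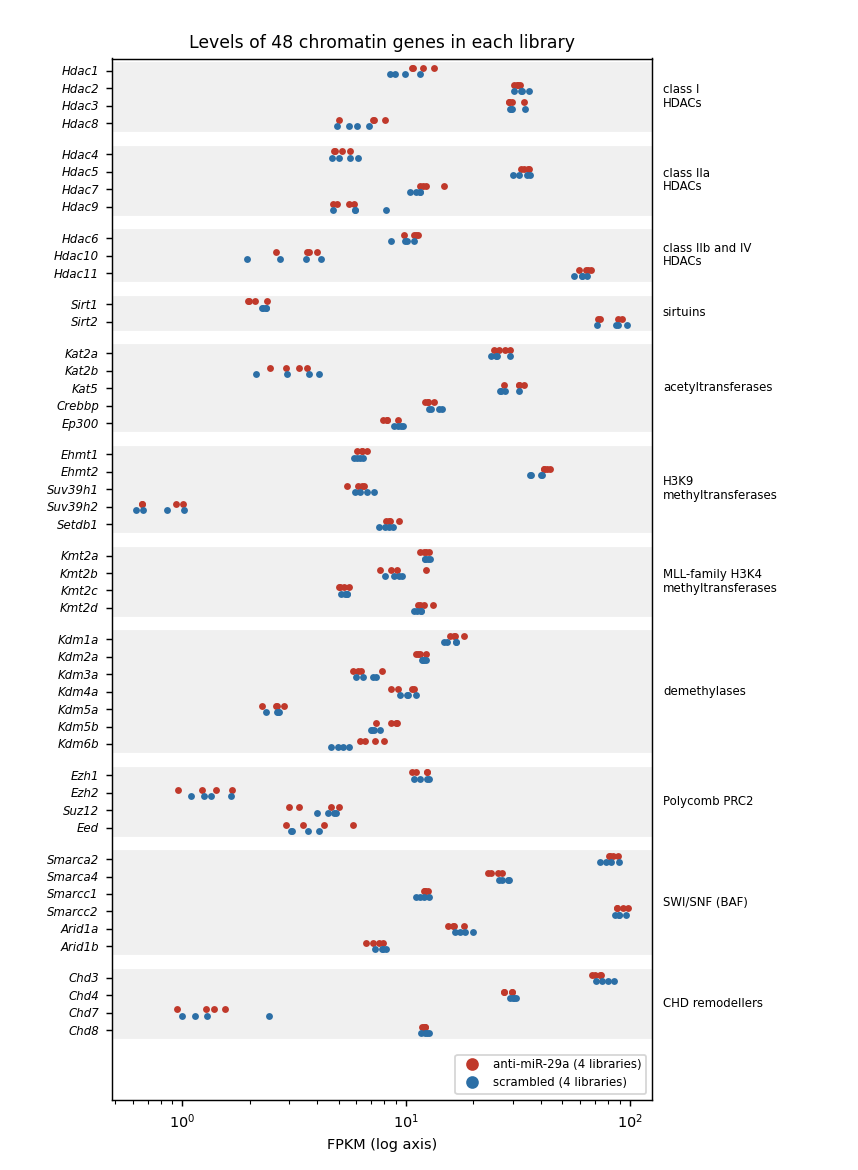
FPKM of each of the 48 genes in the 4 anti-miR-29a libraries (red, upper points) and the 4 scrambled libraries (blue, lower points), on a log axis and grouped by role. Mean levels run from 0.803 FPKM for Suv39h2 to 90.9 FPKM for Smarcc2, and the groups overlap in 46 of the 48 genes.

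The size that these data leave possible can be stated for most of the set. The 95% interval of the difference (limma) lay within 0.5 log2 units of 0 in 38 of 48 genes (79.2%), against 62.3% of all tested rows. In 30 of 48 genes the difference itself was under 0.1 log2 units, and only Kdm6b and Hdac1 exceeded 0.25. The 10 genes whose interval reached past 0.5 were Hdac1, Hdac8, Hdac9, Hdac10, Suv39h2, Kdm6b, Ezh2, Suz12, Eed and Chd7, none with a mean above 10.7 FPKM. For these genes a difference of 0.5 log2 units lies within the interval.

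**Figure D2:**
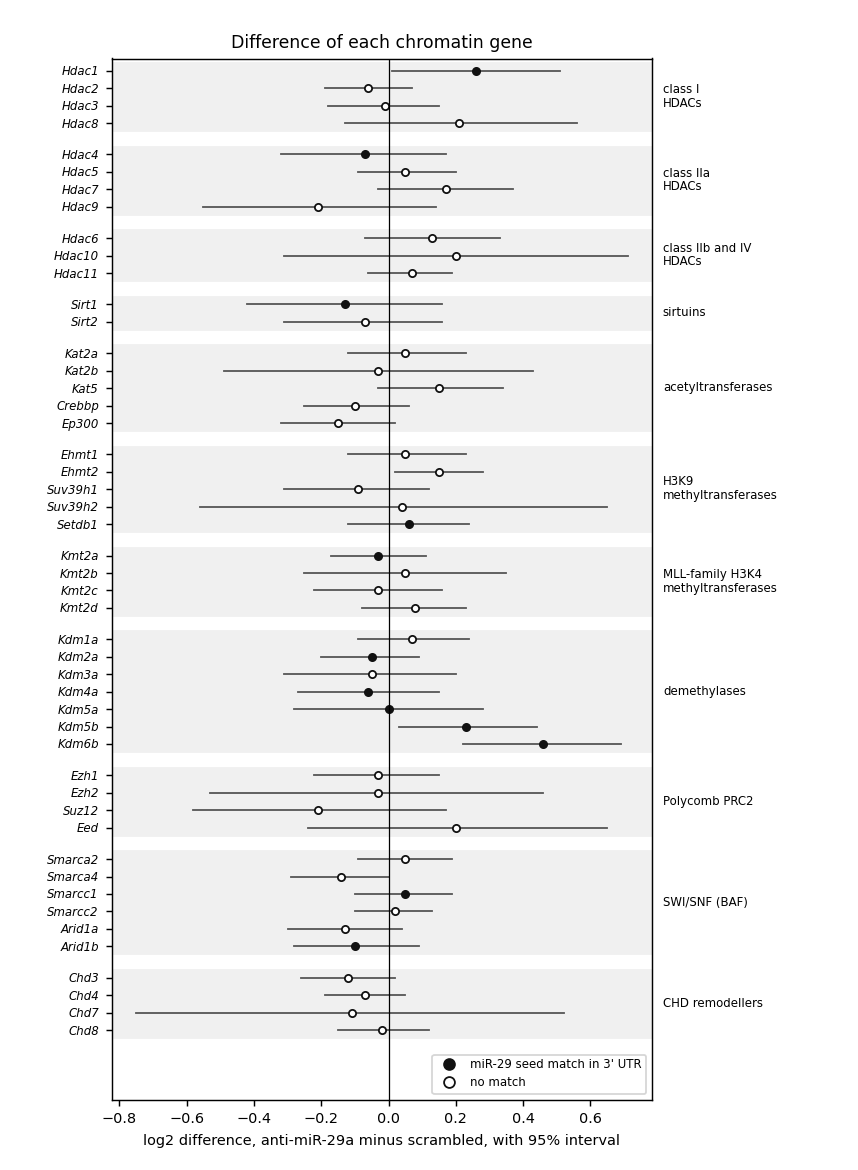
Log2 difference of each gene, anti-miR-29a minus scrambled, with its 95% interval from limma; filled points have a miR-29 seed match in the 3' UTR. Kdm6b at 0.46 stands farthest from 0, and 44 of the 48 intervals include 0.

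Expression levels differed far more between the genes than between the groups. Mean FPKM over the 8 libraries had a median of 10.5 across the set, against 7.03 for all tested rows, and 26 genes reached 10 FPKM. Smarcc2, Sirt2, Smarca2, Chd3 and Hdac11 stood highest. Suv39h2, Ezh2 and Chd7 were the 3 genes under 2 FPKM. Between libraries of one group the coefficient of variation had a median of 7.53% in anti-miR-29a and 7.21% in scrambled libraries.

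Demethylases held the gene with the smallest p of the set. Kdm6b, which removes methyl groups from H3K27 and counters Polycomb silencing, read 7.29, 7.97, 6.56 and 6.24 FPKM in anti-miR-29a libraries, against 5.54, 4.94, 5.21 and 4.62 FPKM in scrambled libraries. Every anti-miR-29a library lay above every scrambled library. The gene lies on the minus strand of chromosome 11 at 69398508 to 69413675 (mm10). The log2 difference was 0.46 with a standard error of 0.105 and a 95% interval of 0.22 to 0.69, and it did not pass (limma, adjusted p = 0.212). It ranked 93 of 13912 rows by p, and its adjusted p ranged from 0.196 to 0.429 over the 16 settings tried. Its exons overlap those of Kdm6bos, on the opposite strand, by 286 nt.

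Kdm5b, an H3K4 demethylase on chromosome 1 (134560171 to 134635285, mm10), read 7.33, 9.12, 9.05 and 8.53 FPKM in anti-miR-29a libraries and 6.94, 7.66, 7.02 and 7.17 FPKM in scrambled libraries. Anti-miR-29a replicate 1 lay below scrambled replicate 2, so the groups overlapped, and the log2 difference of 0.23 (95% interval 0.03 to 0.44) did not pass (limma, adjusted p = 0.398). Kdm1a, the first lysine demethylase described and a partner of the CoREST corepressor, had the highest level of the 7, with 15.7, 18.2, 16.3 and 16.5 FPKM in anti-miR-29a and 14.8, 15.2, 16.7 and 16.8 FPKM in scrambled libraries. Its groups were intermixed. The other demethylases, Kdm2a, Kdm3a, Kdm4a and Kdm5a, had differences of -0.05, -0.05, -0.06 and 0.00 log2 units with adjusted p of 0.805 or more (limma), so of the 5 demethylases with a seed match 3 lay within 0.1 of 0.

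**Figure D3:**
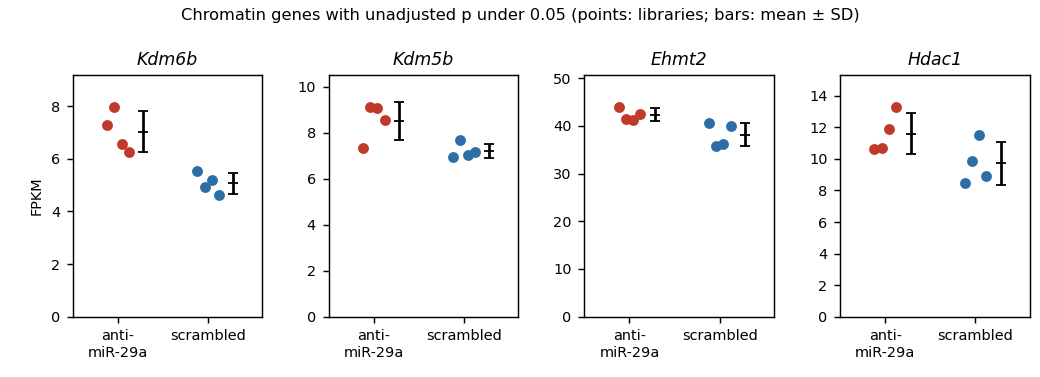
FPKM in each library for the 4 genes with an unadjusted p under 0.05, anti-miR-29a left and scrambled right, with the mean and SD (n = 4 each) as bars; the axes start at 0. In Kdm6b and Ehmt2 the groups do not overlap, and in Kdm5b and Hdac1 they do.

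Class I histone deacetylases are nuclear enzymes, and Hdac1, Hdac2 and Hdac3 act as catalytic subunits of corepressor complexes. The class had 2 of 4 positive differences and none that passed. Hdac1, on the minus strand of chromosome 4 (129516104 to 129542713, mm10), read 10.6, 10.7, 11.9 and 13.3 FPKM in anti-miR-29a libraries and 8.50, 9.88, 11.5 and 8.94 FPKM in scrambled libraries. Scrambled replicate 3 lay above anti-miR-29a replicates 1 and 2. The log2 difference was 0.26 (95% interval 0.01 to 0.51; limma, adjusted p = 0.449). Hdac2, the close paralogue of Hdac1 and a brake on memory formation in mice, was more abundant, at 30.5, 31.3, 31.7 and 32.4 FPKM in anti-miR-29a and 32.6, 32.9, 35.5 and 30.3 FPKM in scrambled libraries. Its difference of -0.06 had an interval of -0.19 to 0.07. Hdac3, the deacetylase of the NCoR complexes, averaged 30.3 ± 2.37 FPKM in anti-miR-29a and 30.6 ± 2.33 FPKM in scrambled libraries (SD, n = 4 each). Hdac8, on the X chromosome, read 7.17, 7.10, 8.07 and 5.0 FPKM in anti-miR-29a and 5.57, 6.06, 4.89 and 6.84 FPKM in scrambled libraries. Anti-miR-29a replicate 4 alone of its group lay within the scrambled range. The log2 difference was 0.21 (limma, adjusted p = 0.663), with 0.35 without that library and 0.13 without anti-miR-29a replicate 3.

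Class IIa deacetylases shuttle between nucleus and cytoplasm with neuronal activity and bind MEF2 factors. Hdac5 was the most abundant of them, with 35.2, 32.7, 33.8 and 35.6 FPKM in anti-miR-29a and 31.8, 30.1, 35.8 and 34.7 FPKM in scrambled libraries. Hdac7 read 14.8, 11.5, 11.9 and 12.3 FPKM in anti-miR-29a and 11.5, 11.5, 11.1 and 10.4 FPKM in scrambled libraries, a difference of 0.17 (limma, adjusted p = 0.522) in which anti-miR-29a replicate 1 stood highest, and 0.09 without that library. Hdac9 read 4.70, 4.91, 5.84 and 5.54 FPKM in anti-miR-29a and 4.73, 5.90, 5.93 and 8.15 FPKM in scrambled libraries. Its difference of -0.21 (adjusted p = 0.667, limma) was -0.07 without scrambled replicate 4, the highest library, and -0.33 without scrambled replicate 1, the lowest of its group. Hdac4, which holds 2 seed matches, averaged 5.08 ± 0.394 FPKM in anti-miR-29a and 5.35 ± 0.623 FPKM in scrambled libraries, a difference of -0.07 with an interval of -0.32 to 0.17.

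Hdac11, the single class IV deacetylase, was one of the most abundant genes of the set at 64.8, 66.9, 63.6 and 59.5 FPKM in anti-miR-29a and 56.4, 61.4, 61.2 and 64.6 FPKM in scrambled libraries, with intermixed groups. Hdac6, a cytoplasmic deacetylase of tubulin, read 11.1, 10.8, 9.78 and 11.3 FPKM in anti-miR-29a and 9.85, 8.53, 10.1 and 10.9 FPKM in scrambled libraries. Its difference was 0.13 (limma, adjusted p = 0.653), with 0.06 without scrambled replicate 2 and 0.07 with the trend on transcript length and GC content removed. Hdac10, a polyamine deacetylase, was low and variable, at 3.49 ± 0.591 FPKM in anti-miR-29a and 3.11 ± 0.968 FPKM in scrambled libraries (SD, n = 4 each).

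Sirtuins are deacetylases that need NAD. Sirt2, a deacetylase strong in oligodendrocytes, read 71.9, 92.4, 88.4 and 73.6 FPKM in anti-miR-29a and 97.2, 88.2, 86.7 and 71.6 FPKM in scrambled libraries. Summed FPKM of 6 oligodendrocyte markers was 933, 974, 1193 and 895 in the anti-miR-29a libraries and 1644, 1022, 1155 and 803 in the scrambled libraries. Scrambled replicate 1 was highest and scrambled replicate 4 lowest in both measures, and the part of oligodendrocytes in the level of Sirt2 was not tested. Sirt1, a nuclear sirtuin with 1 seed match, read 2.11, 2.40, 1.99 and 1.97 FPKM in anti-miR-29a and 2.27, 2.37, 2.36 and 2.29 FPKM in scrambled libraries, a difference of -0.13 (limma, adjusted p = 0.756).

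Acetyltransferases showed no shared direction, with 2 of 5 differences positive and a median of -0.027. Ep300, a coactivator that acetylates H3K27 at enhancers, read 7.86, 8.18, 9.19 and 8.26 FPKM in anti-miR-29a and 9.53, 8.79, 9.65 and 9.18 FPKM in scrambled libraries. Anti-miR-29a replicate 3 lay within the scrambled range, and the difference of -0.15 did not pass (limma, adjusted p = 0.518). Its paralogue Crebbp averaged 12.6 ± 0.454 FPKM in anti-miR-29a and 13.5 ± 0.825 FPKM in scrambled libraries. Kat5, the catalytic subunit of the Tip60 complex, read 27.3, 33.6, 32.1 and 32.1 FPKM in anti-miR-29a and 26.3, 26.5, 31.9 and 27.8 FPKM in scrambled libraries, a difference of 0.15 (adjusted p = 0.538, limma), reduced to 0.05 once the trend on length and GC content was taken out. It shares 426 nt of exon with Rnaseh2c on the opposite strand. Kat2a and Kat2b, the GCN5 and PCAF acetyltransferases, had differences of 0.05 and -0.03 log2 units.

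Among H3K9 methyltransferases Ehmt2 had groups that did not overlap. Ehmt2, or G9a, which methylates H3K9 and lies on chromosome 17 (34898469 to 34914052, mm10), read 44.0, 41.5, 41.2 and 42.6 FPKM in anti-miR-29a libraries, against 40.7, 35.8, 36.3 and 39.9 FPKM in scrambled libraries. The lowest anti-miR-29a library exceeded the highest scrambled one by less than the SD of either group, 1.27 and 2.47 FPKM. The difference of 0.15 log2 units (95% interval 0.02 to 0.28) did not pass (limma, adjusted p = 0.394). Its partner Ehmt1 averaged 6.36 ± 0.286 FPKM in anti-miR-29a and 6.12 ± 0.233 FPKM in scrambled libraries. Suv39h1, an X-linked enzyme that marks heterochromatin, read 6.5, 6.12, 5.44 and 6.33 FPKM in anti-miR-29a and 6.70, 5.94, 7.20 and 6.22 FPKM in scrambled libraries. Setdb1, which silences retroelements and holds an 8mer site, averaged 8.57 ± 0.512 FPKM in anti-miR-29a and 8.20 ± 0.505 FPKM in scrambled libraries. Suv39h2 was the lowest gene of the set, at 0.816 ± 0.181 FPKM in anti-miR-29a and 0.79 ± 0.182 FPKM in scrambled libraries.

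MLL-family genes encode very large methyltransferases of H3K4. All 4 differences lay between -0.03 and 0.08 log2 units. Kmt2a, which has 1 seed match, read 12.6, 12.3, 11.6 and 12 FPKM in anti-miR-29a and 12.1, 12.2, 12.8 and 12.5 FPKM in scrambled libraries. Kmt2d, which acts at enhancers, read 13.2, 11.3, 12 and 11.6 FPKM in anti-miR-29a and 10.9, 11.2, 11.7 and 11.7 FPKM in scrambled libraries. In Kmt2b, a methyltransferase of promoters, anti-miR-29a replicate 1 stood above the rest at 12.3 FPKM, with 9.07, 8.53 and 7.68 FPKM in the other anti-miR-29a libraries and 8.05 to 9.61 FPKM in scrambled libraries. Kmt2c averaged 5.23 ± 0.25 FPKM in anti-miR-29a and 5.34 ± 0.172 FPKM in scrambled libraries.

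Polycomb repressive complex 2 (PRC2) places the H3K27 mark that Kdm6b removes. Ezh1, the catalytic subunit typical of cells that no longer divide, read 10.6, 12.4, 11.1 and 12.4 FPKM in anti-miR-29a and 11.6, 10.9, 12.7 and 12.4 FPKM in scrambled libraries. Ezh2, the catalytic subunit of dividing cells, was low at 1.31 ± 0.300 FPKM in anti-miR-29a and 1.34 ± 0.235 FPKM in scrambled libraries. The core subunits were variable. Suz12 read 4.62, 5.04, 2.99 and 3.32 FPKM in anti-miR-29a and 3.98, 4.50, 4.77 and 4.85 FPKM in scrambled libraries, and Eed, which reads the mark, had 2.92, 4.28, 5.77 and 3.47 FPKM in anti-miR-29a and 3.09, 3.05, 4.08 and 3.65 FPKM in scrambled libraries. Anti-miR-29a replicate 3 had the lowest Suz12 and the highest Eed of the 8 libraries. The log2 differences of Suz12 and Eed were -0.21 and 0.20, and -0.08 and 0.03 without that library. None passed (limma, adjusted p from 0.701 to 0.969).

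SWI/SNF, also called BAF, genes spanned a wide range of levels. Smarcc2, the most abundant gene of the set and a scaffold subunit of neuronal BAF, read 97.6, 87.8, 93.4 and 87.3 FPKM in anti-miR-29a and 86.2, 95.7, 89.7 and 89.8 FPKM in scrambled libraries, with a difference of 0.02 and a narrow interval of -0.10 to 0.13. Smarca4, or BRG1, an ATPase of the complex, read 23.3, 25.8, 23.9 and 26.9 FPKM in anti-miR-29a and 26.0, 28.8, 26.8 and 28.5 FPKM in scrambled libraries. Its difference of -0.14 did not pass (limma, adjusted p = 0.478), and anti-miR-29a replicate 4 lay within the scrambled range. Arid1a, a DNA-binding subunit, read 16.4, 18.1, 16.2 and 15.4 FPKM in anti-miR-29a and 17.5, 18.3, 16.6 and 19.9 FPKM in scrambled libraries, a difference of -0.13 (adjusted p = 0.582, limma). Arid1b differed by -0.10, Smarca2 by 0.05 and Smarcc1 by 0.05 log2 units, so Smarcc1 with its 8mer site lay near 0.

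CHD remodellers had 4 of 4 negative differences, from -0.12 to -0.02, and none passed. All 4 have a transcript over 6000 nt, a length at which all tested rows had a median of -0.064. With the trend on length and GC content removed, Chd3 stood at -0.10 and Chd4 at -0.07, against -0.12 and -0.07 in the reported fit. Chd3, a NuRD ATPase, read 67.8, 74.0, 70.0 and 73.4 FPKM in anti-miR-29a and 75.3, 70.3, 80.1 and 85.3 FPKM in scrambled libraries (difference -0.12; limma, adjusted p = 0.517). Chd4, the other main NuRD ATPase, read 29.8, 29.6, 27.4 and 27.5 FPKM in anti-miR-29a and 30.4, 29.1, 30.1 and 30.9 FPKM in scrambled libraries. Chd8, a gene tied to autism in people, was steady, at 12.1 ± 0.190 FPKM in anti-miR-29a and 12.2 ± 0.358 FPKM in scrambled libraries. Chd7 was low and averaged 1.29 ± 0.256 FPKM in anti-miR-29a and 1.47 ± 0.666 FPKM in scrambled libraries, where replicate 3 read 2.45 FPKM.

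Related genes were set side by side in 15 pairs as FPKM ratios within a library. A factor that scales a whole library cancels in such a ratio, but a library's trend on transcript length or GC content need not. In 13 of the 15 the groups overlapped. The other 2 hold Hdac1 and Kdm5b, already among the 4 genes of smallest p, so these ratios are not separate evidence, and no background share was computed for pairs. The ratio of Hdac1 to Hdac2 was 0.342 to 0.411 in anti-miR-29a and 0.261 to 0.325 in scrambled libraries, a difference of 0.32 in mean log2 ratio. The ratio of Kdm5a to Kdm5b was 0.291 to 0.333 in anti-miR-29a and 0.337 to 0.389 in scrambled libraries, a difference of -0.24. The ratios are given as a description, with no test.

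In all 15 pairs the same paralogue was the more abundant in all 8 libraries. Smarcc2 exceeded Smarcc1, whose ratio to it was 0.123 to 0.139 in anti-miR-29a and 0.124 to 0.135 in scrambled libraries. Ezh1 exceeded Ezh2 by 7.45 to 11 times in anti-miR-29a and 7.02 to 11.3 times in scrambled libraries. Smarca2 exceeded Smarca4 by 3.25 to 3.48 times in anti-miR-29a and 2.71 to 3.33 times in scrambled libraries. Ehmt1 stood at 0.141 to 0.163 of Ehmt2 in anti-miR-29a and 0.148 to 0.171 in scrambled libraries.

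**Figure D4:**
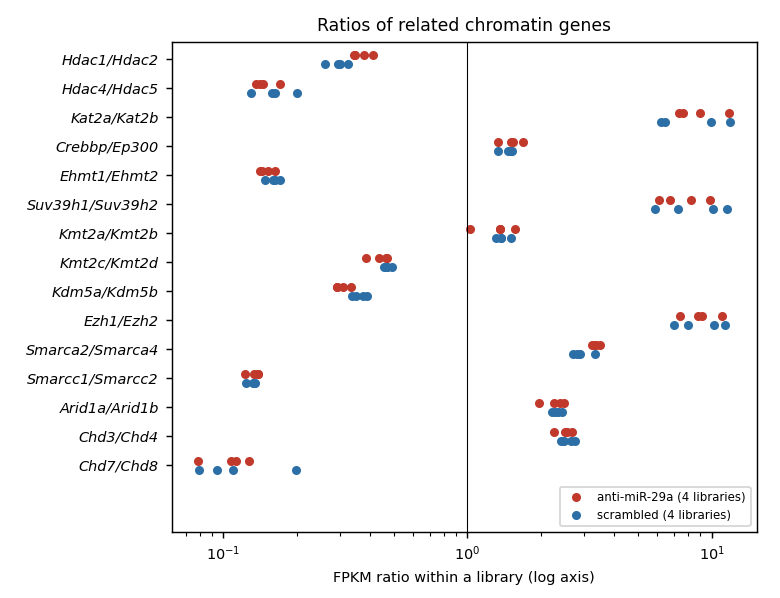
FPKM ratio of the genes in each of 15 pairs, within each anti-miR-29a library (red, upper points) and each scrambled library (blue, lower points), on a log axis; the vertical line marks equal levels. The groups do not overlap for Hdac1/Hdac2 and Kdm5a/Kdm5b and overlap in the other 13 pairs.

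Genes with and without a miR-29 seed match had like medians. The median log2 difference was -0.016 over the 12 genes with a match, 5 of them positive, and -0.015 over the 36 without one, 17 of them positive. Over all tested rows the medians were 0.025 with a match and 0.026 without.

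Transcript length went with the differences inside the set as it did across all genes. The longest annotated transcript had a median of 4758 nt for the 48 genes and 3146 nt for all tested genes, and 39.6% of the set exceeded 6000 nt, against 13.8% of all tested genes. The 19 members over 6000 nt had a median difference of -0.071 log2 units, beside -0.064 for the 1890 tested rows of that length. The 20 members of 3000 to 6000 nt had a median of 0.045, beside 0.005 for all rows of that length, and the 9 shorter members 0.154, beside 0.073. Kdm6b and Kdm5b lay above this trend, and with the trend on length and GC content removed they were the 2 members that kept an unadjusted p under 0.05, with 7.64% of all rows under it.

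**Figure D5:**
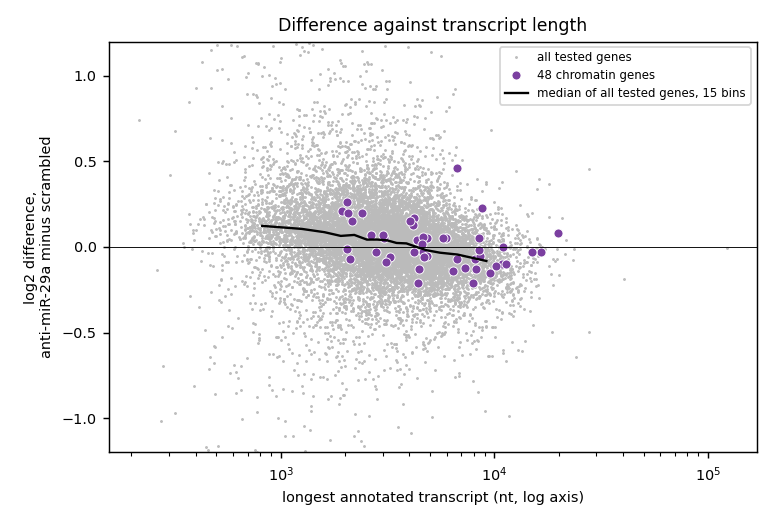
Log2 difference, anti-miR-29a minus scrambled, against the longest annotated transcript (log axis) for all tested genes (grey), the 48 chromatin genes (purple) and the median of all tested genes in 15 bins of equal size (line); grey points beyond 1.2 log2 units are not drawn. The line runs downward with length, and the chromatin genes lie around it.

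Related genes outside the set were counted in the same way. They were other enzymes of the same families, other complex subunits and remodellers, and readers of acetylated histones. Of 126 related genes with a row, 123 were tested and none passed (limma); 7 were higher and 6 lower at an unadjusted p under 0.05 (10.6%, against the 10.7% of all tested rows), and the median difference was 0.020. Cbx6, a Polycomb protein of the chromobox family, had the smallest p, with 95.6 ± 9.38 FPKM in anti-miR-29a and 73.3 ± 3.25 FPKM in scrambled libraries (SD, n = 4 each; log2 difference 0.38; limma, adjusted p = 0.15). Pcgf6, a PRC1 subunit, stood at 0.40 (adjusted p = 0.375, limma).

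Among the other methyltransferases Ash1l, which methylates H3K36, read 11.9 ± 0.416 FPKM in anti-miR-29a and 13.9 ± 0.378 FPKM in scrambled libraries (log2 difference -0.23; limma, adjusted p = 0.254), and Suv420h2, a methyltransferase of histone H4, stood at 0.41 (adjusted p = 0.313, limma). Bptf, a subunit of the NURF remodeller, stood at -0.26 and Atrx, a remodeller of heterochromatin, at -0.15 (limma, adjusted p = 0.284 and 0.458). Brd2, a reader of acetylated histones, stood at 0.18 and Brd1, a subunit of an acetyltransferase complex, at -0.19 (adjusted p = 0.30 and 0.543, limma). In the SWI/SNF complex Brd7 and the neuronal subunit Actl6b stood at 0.26 and 0.13 (limma, adjusted p = 0.338 and 0.415). Of the corepressor subunits Ncor1, the platform of Hdac3, stood at -0.17 and Gatad2b, a NuRD subunit, at -0.32 (limma, adjusted p = 0.391 and 0.463). Sirt5 and Sirt7 stood at -0.33 and 0.17, Kat6a and Hat1 at -0.14 and 0.23, Dpy30 and Wdr5 of the MLL complexes at 0.17 and 0.14, and the demethylases Kdm2b and Jmjd1c at 0.22 and -0.18 log2 units (limma, adjusted p from 0.391 to 0.702).

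Libraries were alike in the summed level of the 48 genes, which was 905 to 937 FPKM in anti-miR-29a and 895 to 933 FPKM in scrambled libraries. Set against the scrambled mean, the median over the 48 genes was -0.026, 0.043, 0.001 and -0.019 log2 units in anti-miR-29a libraries and -0.041, -0.005, 0.019 and 0.040 in scrambled libraries. The groups overlapped in this measure, and no library of either group stood apart. Of the members 3, Hdac6, Hdac8 and Suv39h1, are X-linked, and the libraries were uneven in transcripts of the sexes. Xist, expressed from the inactive X of females, read 0.109 to 25.3 FPKM in anti-miR-29a and 0.0162 to 33.1 FPKM in scrambled libraries, and Ddx3y, on the Y chromosome, 2.47 to 6.44 FPKM in anti-miR-29a and 1.6 to 5.51 FPKM in scrambled libraries. In each group the lowest Xist value was that of replicate 1, and all other libraries read 7.59 FPKM or more. Xist and Ddx3y both reached 1 FPKM in 6 of the 8 libraries, so a sample may hold RNA of more than 1 animal.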

How the data were processed

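Visual cortex RNA of 8 samples, 4 per group, was sequenced as paired reads after library preparation with a kit that does not mark strand, per the labels' protocols. The authors deposited 1 table of FPKM per gene row and library. CASAVA 1.8.2, Bowtie and Cuffnorm with build mm10 are named per the submitters' processing notes; the sources used here do not give their order, annotation, filters or scaling. The total depth is unknown, so no counting interval is given. The number of libraries sets the precision.

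The members and lists were chosen with earlier results of these data known. The fit used the 13912 rows whose mean over all libraries reached 0.5 FPKM, after the transform log2(FPKM + 0.1). Group was the sole term in limma 3.58.1 (R 4.3.3), its empirical Bayes step followed a mean-variance trend, and p-values are two-sided and Benjamini-Hochberg adjusted over all rows; a fold change on this scale understates low genes. All 48 members passed the filter. Intervals are limma's 95% intervals. Values in every library are given for the 2 members of smallest p and the 1 of highest mean in each role group, and Kmt2b, outside this rule, is described by its libraries after its values were seen. Related genes are named as the 2 of smallest p in each of their lists. Positions, transcript lengths and UTRs were read from GENCODE M21 on the same assembly as mm10, which matched 23965 of 24346 symbols, 655 of them through an older symbol, and all 48 members.

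Alternatives were a pseudocount of 1, no filter, quantile normalization, median centring, a replicate block, robust empirical Bayes, removal of each library's spline trend over transcript length and GC content, and each library left out in turn.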

Additional observations from a re-analysis of the deposited data

Results flagged for a closer look

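Within groups of 4 libraries, 98 sets of values were looked at for a single value far from the other 3, and 2 were found, fewer than the 1 in 20 that chance flags. Hdac3 read 34.1 FPKM in scrambled replicate 4, against 29.2 to 29.7 FPKM in the other scrambled libraries. Kdm5a read 2.36 FPKM in scrambled replicate 3, against 2.66 to 2.70 FPKM in the others.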

How the results depend on the processing

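None of the 48 members was called in any of the 16 settings. Over all rows the count of 2 became 1 without a filter, 10 with robust empirical Bayes, 0 with the replicate number as a block and 0 with the length and GC trend removed, and it was 1 to 3 with a library left out, 1 without anti-miR-29a replicate 1 or 4 or scrambled replicate 1. The number of members under an unadjusted p of 0.05 (limma) was 4 in the reported fit. It was 6 with quantile normalization, 5 with median centring, 5 without a filter and 2 with the length and GC trend removed. With a library left out it was 2 to 4, 2 without scrambled replicate 4. The genes counted differ between settings. Kdm6b was under this threshold in 16 of 16 settings, Kdm5b in 10, Ehmt2 in 9 and Hdac1 in 8. Smarca4 (lower) was under it in 6, Chd3 and Ep300 (lower) in 3 each, Kat5 in 2, and Hdac7, Hdac8 and Arid1a (lower) in 1 each. The median of the members ranged from -0.046 with quantile normalization to 0.015 without anti-miR-29a replicate 1, so its sign is not firm. Of 405 values of 27 named members 396 kept their direction, and none passed the adjusted threshold of 0.05. Smarcc2 became -0.02 with quantile normalization, -0.01 with median centring and -0.02 with the trend removed, which also gave -0.01 for Hdac11 and 0.04 for Kmt2a. Leaving out 1 library gave -0.01 to 0.05 for Smarcc2 and -0.07 to 0.01 for Ezh1. The cause was not tested. By the labels, same-numbered samples share only that number, though replicate 1 of each group was the lowest in Xist. Deviations of same-numbered samples correlated at -0.145 to 0.013, and 0 of 4 samples correlated best with its own number. With the replicate block 5 members had an unadjusted p under 0.05 (limma). Depth is unknown, so its part in the precision was not tested.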
